A study of Mus musculus with 9 samples.

Results

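The complement genes C1ra, C4b, C2, C3, Cfb, Serping1 and Cd55, which fibroblasts can make, were followed by symbol in RNA-Seq read counts of mouse embryonic fibroblasts (MEFs). All 7 were listed in every sample, among 24341 genes in all. The 9 samples were 3 WT, 3 labelled Atm-/- and 3 labelled Sirt6-/-, each labelled with the strain C57BL/6 and grown in DMEM with 10% FBS. Atm encodes a kinase that signals DNA double strand breaks, and Sirt6 encodes a chromatin deacetylase. Each sample held 32187040 to 33837949 counted reads. The comparisons ask how each knockout differs from WT and how both knockouts differ from each other.

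Several facts limit what the groups can stand for. The labels name wildtype, Sirt6-/-, P53-/- and Atm-/-P53-/- mice as the source of the MEFs without tying them to samples, and the study's methods list immortalised lines from separate laboratories. Trp53, the gene of p53, had 806, 946 and 928 reads in the samples labelled Atm-/- and 7108, 7102 and 6563 in WT, so what Atm and what p53 contributes cannot be told apart. The Sirt6 gene kept 4, 5 and 7 reads in its knockout, whereas WT samples showed 487, 402 and 472. The methods name Atm-/-; p53-/- MEFs and Sirt6-/- MEFs as immortalised and received from different outside laboratories, and which lines were sequenced is not stated. Differences of either knockout from WT, or between the knockouts, thus cannot be told apart from differences between lines. Atm itself was not lower in the samples labelled Atm-/-, with 3768, 3564 and 3443 reads against 1536, 1617 and 1627 in WT. A read total over the whole gene does not check a label where the deletion leaves a transcript, and Atm-/- below means the samples with that label. Whether the 3 samples of a genotype came from separate embryos or cultures is not given, and p-values then measure only the spread between these samples. WT replicate 2 stood apart from the other WT samples, with a chi-square per gene of 12.6 and 13.6 against 5.62 between those, and every called member stayed called without it.

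Complement is a cascade of plasma proteins that tags cells and microbes for removal. In the classical pathway C1s, the protease partner of C1r, cleaves C4 and C2, whose fragments join into an enzyme that cleaves C3. In the alternative pathway factor B takes the place of C2, and inhibitors in plasma and on cell membranes hold both enzymes in check. The liver makes most of the circulating proteins, and fibroblasts make some of them locally, with cytokines such as interleukin 6 and interferons among the known inducers.

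C3 and Cd55 are shown first by the DNA upstream of their start sites, because C3 was the most abundant of the 7 genes in all 3 genotypes and Cd55 differed from it most in pattern. Each sequence is the 250 bases before the RefSeq start in GRCm38.p6, read 5′ to 3′ on the minus strand of the gene, at chr17:57228137-57228386 for C3 and chr1:130462745-130462994 for Cd55. The Cd55 window lies inside the listed span of the gene, which reaches further upstream than this start. Capitals mark a match to a searched motif.
C3: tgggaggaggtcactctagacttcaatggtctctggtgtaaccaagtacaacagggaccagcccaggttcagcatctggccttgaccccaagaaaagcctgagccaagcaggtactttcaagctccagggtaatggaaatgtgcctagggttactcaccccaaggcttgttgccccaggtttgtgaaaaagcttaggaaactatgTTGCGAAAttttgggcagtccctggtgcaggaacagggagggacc
Cd55: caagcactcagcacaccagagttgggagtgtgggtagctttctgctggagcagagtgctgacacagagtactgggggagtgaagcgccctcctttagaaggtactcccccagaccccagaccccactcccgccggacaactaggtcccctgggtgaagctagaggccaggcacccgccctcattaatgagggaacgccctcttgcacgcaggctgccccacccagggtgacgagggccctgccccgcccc

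RefSeq promoter sequences were matched for 3 of the 7 genes, C3, C1ra and Cd55. In all, 5 motifs were searched on both strands, where N is any base: GGANNTTCC for NF-kB, TTCNNNGAA for STAT factors, TTTCNNTTT for interferon response, TTGCNNAA for C/EBP factors and TATAAA for a TATA box. The single match was TTGCGAAA, the C/EBP pattern, 45 to 38 bases upstream of the C3 start. That pattern stood in 9.56% of 32851 promoter windows of the same length, against 3.59% for NF-kB, 7.02% for STAT, 9.37% for interferon response and 12.4% for the TATA box. A match describes the letters of the window and is no evidence of a bound factor.

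Of the 7 genes, 5 rose in Sirt6-/- MEFs: C1ra, C4b, C3, Cfb and Serping1. Cd55 fell to near 0 there. In Atm-/- MEFs C1ra, C3 and Serping1 fell while C2 and Cd55 rose. A gene was called at an adjusted p under 0.05 in edgeR's quasi-likelihood test over all genes tested. In Atm-/- against WT 2 of 6 tested members were higher and 3 lower, where 34.7% of all tested genes were higher and 33.6% lower. In Sirt6-/- against WT 5 of 6 tested members were higher and 1 lower, against 39.2% and 37.4% of all genes. In Sirt6-/- against Atm-/- all 7 were tested, with 5 higher and 2 lower, against 37.8% and 38.0% of all genes. Cfb had too few reads to be tested in the first comparison, and C2 in the second. Elsewhere each passed the filter on low counts only through the genotype where it was higher, so its direction there was fixed by the filter. The same holds for Cd55, which passed in the comparisons with Sirt6-/- only through the other genotype. The counts of members called are thus a description. Both comparisons with WT share the same 3 WT samples. Fewer cells that express a gene and less RNA per cell cannot be told apart in these bulk samples.

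**Figure D1:**
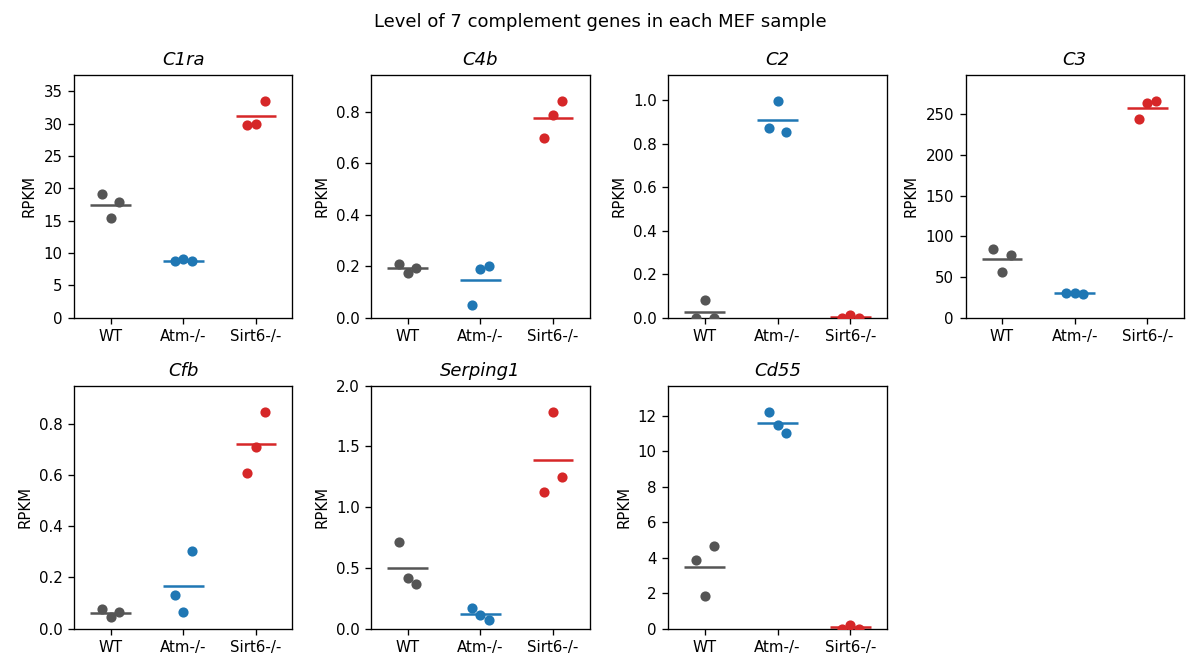
Deposited RPKM (read counts scaled to gene length and to the read total of the sample) of the 7 complement genes in each of the 9 MEF samples, grouped by genotype, with the means of the 3 samples. C3 stands highest in every genotype, while Cd55 is at 0 in 2 of the 3 Sirt6-/- samples.

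C3, the protein on which all complement pathways converge, lies on chromosome 17 from 57203967 to 57228136 (GRCm38.p6, as for all positions here). It had 14665, 9483 and 13278 reads in WT, 5115, 5193 and 4776 in Atm-/-, and 40608, 43640 and 45788 in Sirt6-/-. The 3 genotypes did not overlap, with every Atm-/- sample below and every Sirt6-/- sample above WT. The log2 fold change was -1.45 in Atm-/- (SE 0.11, adjusted p = 2.13e-08) and 1.75 in Sirt6-/- (SE 0.11, adjusted p = 1.67e-09), both against WT. WT replicate 2 was the lowest of its group, and without it these values were -1.61 and 1.57. Between the knockouts Sirt6-/- was 9.04-fold higher (log2 fold change 3.18, SE 0.04, adjusted p = 3.17e-23).

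By RPKM, which corrects for gene length, C3 stood at 72.5 ± 15.0 in WT, 29.8 ± 0.852 in Atm-/- and 258 ± 11.9 in Sirt6-/- (mean ± SD, n = 3). This placed it at rank 1108 of all 24341 genes in WT, 2984 in Atm-/- and 246 in Sirt6-/-. Of the summed RPKM of the 7 genes it held 57.8% in Atm-/- and 88.3% in Sirt6-/-, with WT between them.

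C1ra, a mouse gene of the protease C1r that starts the classical pathway, lies on chromosome 6 from 124512621 to 124523440. It had 1794, 1408 and 1650 reads in WT, 796, 835 and 778 in Atm-/-, and 2659, 2676 and 3099 in Sirt6-/-. As with C3, Atm-/- lay below WT and Sirt6-/- above it with no overlap, but the rise in Sirt6-/- was smaller. On the log2 scale it differed from WT by -1.15 in Atm-/- (SE 0.08, adjusted p = 1.66e-08) and 0.74 in Sirt6-/- (SE 0.08, adjusted p = 7.15e-07). It was second in level after C3 in WT and Sirt6-/-, with 17.5 ± 1.96 and 31.1 ± 2.10 RPKM. In Atm-/- its 8.84 ± 0.195 RPKM lay below the 11.6 ± 0.613 of Cd55.

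C4b, the mouse gene of complement C4, lies in the class III region of the MHC on chromosome 17 from 34728139 to 34743902. Its reads were 38, 31 and 35 in WT, 9, 34 and 35 in Atm-/-, and 122, 137 and 152 in Sirt6-/-. Sirt6-/- stood clear of both other genotypes, while Atm-/- overlapped WT and held one low sample, replicate 1. The log2 fold change in Sirt6-/- was 1.93 (SE 0.23, adjusted p = 2.63e-06). In Atm-/- it was -0.55 with a 95% interval from -1.48 to 0.38 (adjusted p = 0.277) and the interval spans 0. Sirt6-/- was 5.50-fold above Atm-/- (adjusted p = 5.86e-07).

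C2, the protease that pairs with C4, lies on chromosome 17 from 34862602 to 34882100. It had 76, 88 and 73 reads in Atm-/-, but 0, 7 and 0 in WT and 0, 1 and 0 in Sirt6-/-. C2 was thus read well above the floor of 3 counts in all 3 Atm-/- samples, in WT above it only in replicate 2, and in Sirt6-/- in no sample. The fitted log2 fold change in Atm-/- against WT was 4.87 (SE 0.63, adjusted p = 7.27e-06). All WT reads were in WT replicate 2. Without that sample the fitted value was 9.25, and the 237 Atm-/- reads were at least 48.4-fold above the floor of 3 counts over the other WT samples. Between knockouts the 237 reads of Atm-/- against 1 read of Sirt6-/- gave a ratio of 225 with a 95% counting interval from 40.0 to 8923 (fitted log2 fold change -7.37 in Sirt6-/-, adjusted p = 1.22e-09). That 1 read was in Sirt6-/- replicate 2, and without it the fitted value was -9.28 and Atm-/- was at least 50.3-fold higher.

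Cfb encodes factor B and lies 87 bases from C2 on the same strand, on chromosome 17 from 34856374 to 34862514. Its counts were 7, 4 and 6 in WT, 12, 6 and 27 in Atm-/-, and 54, 63 and 78 in Sirt6-/-. The Sirt6-/- samples were all above the others, whereas Atm-/- overlapped WT. Cfb was 10.8-fold higher in Sirt6-/- than in WT (log2 fold change 3.44, SE 0.40, adjusted p = 2.12e-06) and 4.49-fold higher than in Atm-/- (log2 fold change 2.17, SE 0.41, adjusted p = 7.97e-05). Atm-/- replicate 3 held 27 of the Atm-/- reads, and without it the second log2 value was 2.91. The neighbours C2 and Cfb thus differed in opposite directions between the knockouts.

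Serping1, the plasma inhibitor of C1r and C1s, lies on chromosome 2 from 84765360 to 84775444. It had 44, 25 and 22 reads in WT, 10, 7 and 4 in Atm-/-, and 66, 105 and 76 in Sirt6-/-. Its order was that of C3 and C1ra, Atm-/- lowest and Sirt6-/- highest, with no overlap. Its log2 fold changes were -2.23 in Atm-/- (SE 0.49, adjusted p = 0.000936) and 1.39 in Sirt6-/- (SE 0.33, adjusted p = 0.00152). The knockouts differed 12.1-fold (adjusted p = 6.15e-08). At 0.497 ± 0.190 RPKM in WT it was a low gene, and no sample held more than 105 of its reads.

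Cd55, the membrane protein that speeds decay of the C3 cleaving enzymes on a cell's own surface, lies on chromosome 1 from 130429798 to 130465009. It had 331, 155 and 393 reads in WT, 1019, 966 and 899 in Atm-/-, and 0, 16 and 0 in Sirt6-/-. Its order was the reverse of C3, highest in Atm-/- and near 0 in Sirt6-/-, again with no overlap. In Atm-/- the log2 fold change was 1.58 (SE 0.21, adjusted p = 1.11e-05), and 1.28 without WT replicate 2, the lowest of its group. The fitted value in Sirt6-/- was -5.80 against WT (SE 0.60, adjusted p = 5.09e-07) and -7.39 against Atm-/- (SE 0.31, adjusted p = 9.67e-15). All 16 reads were in Sirt6-/- replicate 2, and without that sample the fitted values were -11.22 and -12.88. Against the floor of 3 counts over the other Sirt6-/- samples, WT was then at least 204-fold and Atm-/- at least 612-fold higher. Cd55 made up 3.67% of the members' summed RPKM in WT, 22.5% in Atm-/- and 0.0224% in Sirt6-/-.

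**Figure D2:**
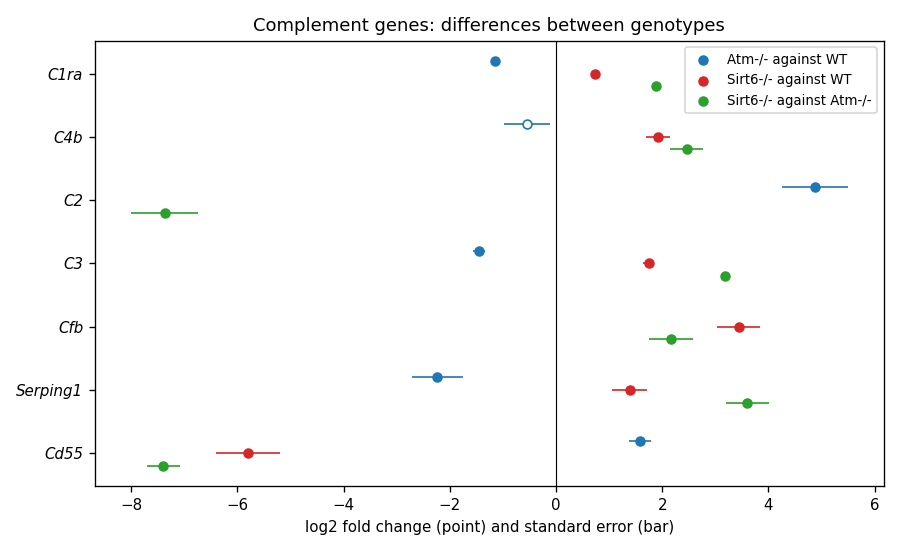
Log2 fold change of the 7 complement genes in the 3 comparisons, from edgeR's quasi-likelihood fit, with standard errors as bars (filled, adjusted p under 0.05; open, not called). Between the knockouts 5 genes are higher in Sirt6-/- and C2 and Cd55 are lower.

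In level per length, the order in WT was C3, C1ra, Cd55, Serping1, C4b, Cfb and C2, and the samples of Cfb and C2 overlapped. In Atm-/- Cd55 and C2 (0.908 ± 0.0784 RPKM) moved up the order, while Cfb, C4b and Serping1 came last with overlapping neighbours. In Sirt6-/- C3, C1ra and Serping1 (1.38 ± 0.354) led, C4b and Cfb overlapped at 0.776 ± 0.0719 and 0.722 ± 0.121, and Cd55 and C2 overlapped near 0. Only C3, C1ra and Cd55 exceeded 2 RPKM as a mean in any genotype. The median log2 fold change of the tested members was -0.85 in Atm-/- and 1.57 in Sirt6-/-, beside 0.015 and 0.024 over all tested genes.

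C1ra, C4b and Cd55 have near-identical copies nearby, and reads from shared sequence could be assigned to either gene. Of all 50-base windows of the transcript, 48% of C1ra recurred in C1rb, 35.2% of C4b in C4a and 13.3% of Cd55 in Cd55b, which is listed under its older name Daf2. How reads matching both were assigned is not given in the sources used here.

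C1rb, the copy of C1ra, had 690, 608 and 802 reads in WT, 373, 311 and 318 in Atm-/-, and 1014, 1097 and 1160 in Sirt6-/-. C1ra took 67.3% to 72.9% of the pair's reads in every sample, so both moved alike. The log2 fold change of C1rb was -1.20 in Atm-/- and 0.59 in Sirt6-/- (adjusted p = 4.99e-07 and 6.15e-05).

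The C4 pair did not keep its balance. C4a, whose product is a sex-limited relative of C4, had 57, 56 and 62 reads in WT, 90, 81 and 89 in Atm-/-, and 64, 26 and 44 in Sirt6-/-. C4b took 35.6% to 40.0% of the pair in WT, 9.09% to 29.6% in Atm-/- and 65.6% to 84.0% in Sirt6-/-, with no overlap between genotypes. C4a was not called against WT in either knockout (adjusted p = 0.104 in Atm-/-), though its 3 Atm-/- samples all lay above WT. With the reads of each copy added to its member, the C4b log2 fold change in Sirt6-/- was 0.91 instead of 1.93 (adjusted p = 0.000248), and that between the knockouts 0.76 instead of 2.46 (adjusted p = 0.000535). In Atm-/- it turned to 0.14 and was again not called (adjusted p = 0.545). Daf2 had 19, 8 and 18 reads in WT, 32, 38 and 31 in Atm-/- and 0 in each Sirt6-/- sample, the same order as Cd55.

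**Figure D3:**
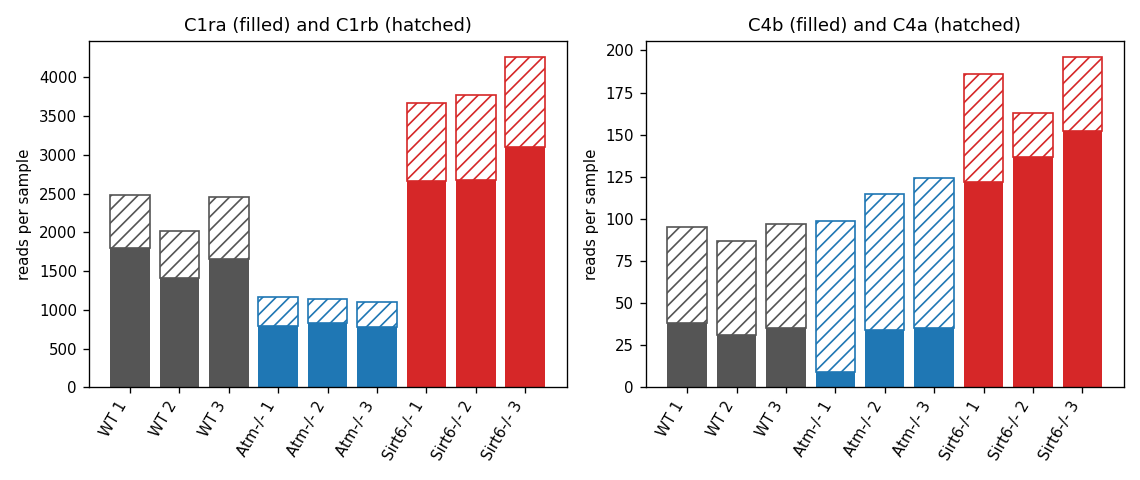
Reads per sample of C1ra and C4b (filled bars), with those of their copies C1rb and C4a stacked on top (hatched), in each of the 9 samples. C4b exceeds C4a only in the 3 Sirt6-/- samples.

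Among themselves C3, C1ra, Serping1 and C4b had the most alike patterns, Cfb stood somewhat farther off, and C2 and Cd55 lay apart. Likeness was measured as the root mean square difference of log2 CPM over the 9 samples, each gene centred on its own mean, as a description over samples that share a genotype. Serping1 was nearest to C3 at 0.40, followed by C1ra at 0.57 and C4b at 0.58. Cfb stood at 1.05 from C3, C2 at 3.56 and Cd55 at 4.70. Of 13684 other genes, the closest to C3 were Cd248 (0.15), Lox (0.16) and Fstl1 (0.20), where Cd248 is a stromal surface protein and Lox the enzyme that cross-links collagen. Fstl1 was also among the 3 closest to Serping1 (0.37), after Serpinf1 (0.36). Nupr1, Cpq and Pdzd4 were closest to C1ra, all at 0.11 to 0.12. The nearest to Cd55 were farther off, Npy4r at 0.78, Zfp182 at 0.83 and Dlk1 at 0.89. This distance is not scaled to a gene's own range, which was 8.92 for Cd55, 3.28 for C3 and 2.01 for C1ra in log2 units. The proliferin genes Prl2c2 and Prl2c3 came nearest to C2, each at 0.39, and they share sequence with each other.

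Of 42 other complement genes, 15 had enough reads for the test in Atm-/- against WT, with 5 higher, 7 lower and 3 not called. In Sirt6-/- against WT 16 were tested, with 6 higher, 8 lower and 2 not called. Their median log2 fold change was -0.33 in Atm-/- and -0.10 in Sirt6-/-, beside 0.015 and 0.024 over all tested genes. Between the knockouts 15 were tested, with 5 higher in Sirt6-/-, 7 lower and 3 not called. The shares of all tested genes were 34.7% higher and 33.6% lower in Atm-/-, and 39.2% and 37.4% in Sirt6-/-. They were 37.8% and 38.0% between the knockouts. The C1q genes C1qa, C1qb and C1qc, which encode the recognition part of C1, had at most 8 reads in any sample. The lectin genes Mbl1 and Mbl2, and C7, C8a and C8b of the membrane attack complex, had 0 in all.

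C1s1, the protease partner of C1r, had 3568, 2423 and 3246 reads in WT, 1548, 1661 and 1474 in Atm-/-, and 3573, 3937 and 4473 in Sirt6-/-. It fell in Atm-/- as C1ra did (log2 fold change -1.12, adjusted p = 2.29e-07). Its rise in Sirt6-/- was small, at 0.32 with an adjusted p of 0.0124, its normalised values overlapped WT, and the adjusted p reached 0.11 under other settings. Masp1, a protease of the lectin pathway, showed the largest rise of the list in both knockouts. It went from 92, 81 and 92 reads in WT to 898, 839 and 827 in Atm-/- and 1995, 2025 and 2020 in Sirt6-/-, log2 fold changes of 3.14 and 4.46. Cfp, the properdin gene that stabilises the alternative pathway enzyme, rose by 1.28 and 1.29 (adjusted p = 0.00085 and 0.000498). Colec12, a membrane collectin, was lower by log2 values of -0.93 and -1.29.

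Of the other inhibitors and the receptors, most of those called were lower in both knockouts. Cd59a, the membrane inhibitor of the attack complex, was lower in both, at -2.80 and -5.13, with 3, 9 and 3 reads left in Sirt6-/- (-5.86 without Sirt6-/- replicate 2). Cr1l, the membrane inhibitor also called Crry, kept 796, 878 and 1013 reads in Sirt6-/- against 1723, 1517 and 1529 in WT, with log2 fold changes of -0.53 in Atm-/- and -0.88 in Sirt6-/-. Clu, clusterin, was higher in Atm-/- at 1.79 and lower in Sirt6-/- at -1.45. Susd4 was higher in Sirt6-/- at 3.19 (3.88 without WT replicate 1) and too low to test in Atm-/-. Of the membrane inhibitors named, Sirt6-/- MEFs thus held few reads of Cd55 and Cd59a but at least 796 of Cr1l.

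The receptor C3ar1 for the C3a fragment had 72, 219 and 92 reads in WT, 30, 55 and 27 in Atm-/-, and 0, 0 and 4 in Sirt6-/-. Its fitted log2 fold change was -1.91 in Atm-/- and -6.51 in Sirt6-/-, the largest fall of the list in Sirt6-/-. Without WT replicate 2, its highest sample, these values were -1.27 and -5.88, and without Sirt6-/- replicate 3, which held all 4 reads, the latter was -10.02. Itgb2, the beta chain shared by the complement receptors of leukocytes, was lower at -1.23 and -3.25. Cd93 was higher at 1.17 and 3.43, although its Atm-/- samples overlapped WT and that call was lost under other settings (adjusted p up to 0.0823). Between the knockouts Susd4 was higher in Sirt6-/- by a log2 value of 4.02, and C3ar1 was lower, at -4.62 (-8.19 without Sirt6-/- replicate 3).

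**Figure D4:**
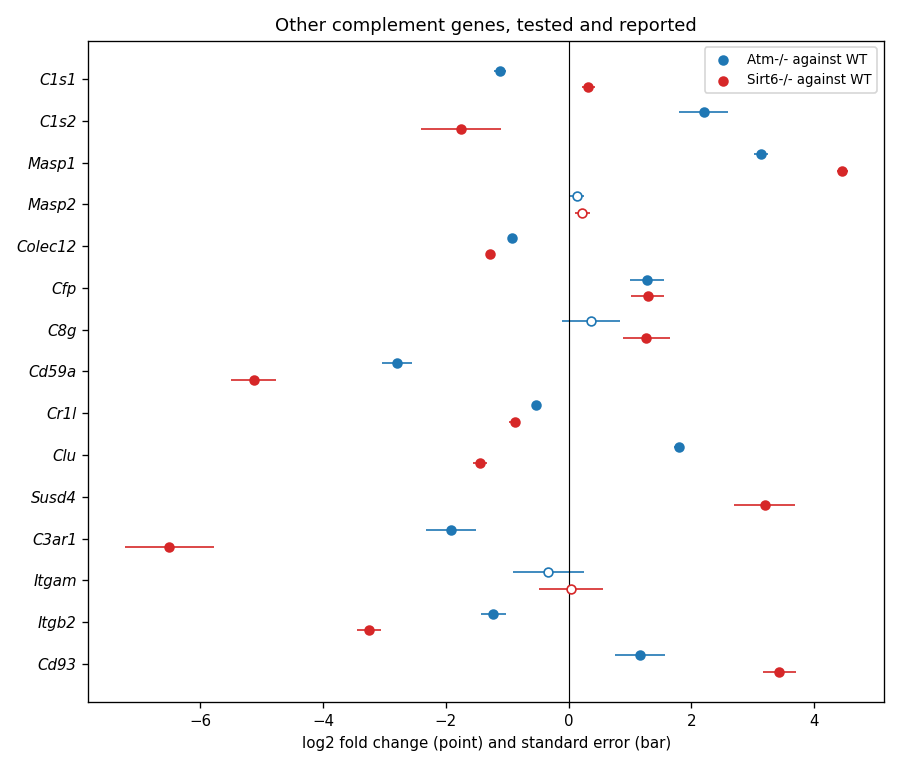
Log2 fold change of other complement genes that were tested and are reported here, in Atm-/- and in Sirt6-/- against WT, with standard errors as bars (filled, adjusted p under 0.05; open, not called). Among those drawn Masp1 is highest in both knockouts, and Cd59a in Atm-/- and C3ar1 in Sirt6-/- are lowest.

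Known inducers of complement and their signalling genes were listed as a set of 21. In Atm-/- 16 were tested, with 3 higher, 10 lower and 3 not called, and a median log2 fold change of -0.58. In Sirt6-/- 17 were tested, with 10 higher, 2 lower and 5 not called, and a median of 0.53. Between the knockouts 13 of 17 were higher in Sirt6-/- and 3 lower, from 5.65 for Il6 to -0.66 for Il6ra, on the log2 scale. Over all tested genes 34.7% were higher and 33.6% lower in Atm-/-, and 39.2% and 37.4% in Sirt6-/-. Between the knockouts these shares were 37.8% and 38.0%. The medians of all tested genes were 0.015 in Atm-/- and 0.024 in Sirt6-/-.

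Il6, the gene of interleukin 6, had 176, 280 and 178 reads in WT, 24, 15 and 12 in Atm-/-, and 785, 948 and 729 in Sirt6-/-, an order like that of C3. Its log2 fold change was -3.76 in Atm-/- (adjusted p = 3.89e-08) and 1.90 in Sirt6-/- (adjusted p = 7.95e-08). Cebpd, a C/EBP factor, had 1302, 1274 and 1255 reads in WT, 449, 476 and 418 in Atm-/-, and 5886, 6731 and 6686 in Sirt6-/-, with log2 fold changes of -1.65 and 2.28. Il6st, the signalling chain of the interleukin 6 receptor, changed by -0.43 and 2.09. Nfkb1, an NF-kB subunit, was higher in Sirt6-/- at 2.09, and its value in Atm-/- was 0.01 (adjusted p = 0.842).

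Of the tested inducers, Il6, Cebpd, Il6st, Il1r1, Ifnar1 and Ifnar2 were called lower in Atm-/- and also higher in Sirt6-/-. No other tested inducer was called in both of these directions. Tnfrsf1a, Ifngr2 and Stat3 were lower in Atm-/- and not called in Sirt6-/-. Ifngr1 was higher in Atm-/- and not called in Sirt6-/-, and Cebpb was called only in Sirt6-/- of the comparisons with WT. Rela, another NF-kB subunit, was higher in both, at 0.41 and 0.50. Il6ra, the ligand binding chain of the receptor, was lower in Sirt6-/- at -0.79. Il1b, Tnf, Ifng and Ifnb1 had at most 7 reads in any sample. Whether these genes had a part in the levels of the complement genes was not tested.

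**Figure D5:**
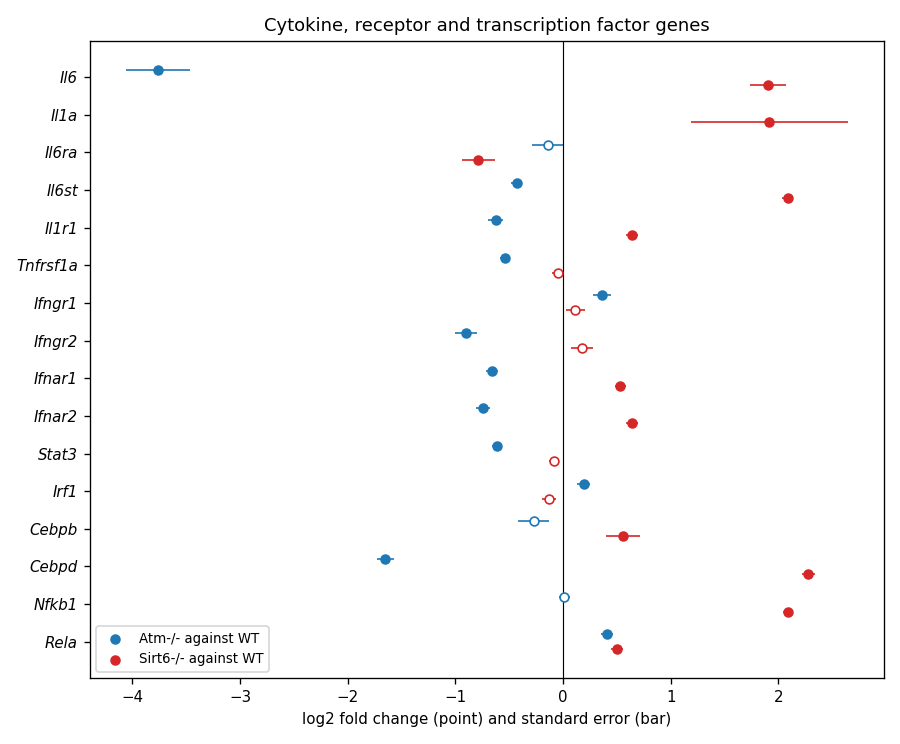
Log2 fold change of inducer genes that were tested and are reported here, in Atm-/- and in Sirt6-/- against WT, with standard errors as bars (filled, adjusted p under 0.05; open, not called). Il6 and Cebpd lie at the low end in Atm-/- and, with Il6st and Nfkb1, near the high end in Sirt6-/-.

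Markers of fibroblasts and other cell types were read in the same samples. The 9 fibroblast markers summed to 5104 to 5687 RPKM in WT, 2265 to 2306 in Atm-/- and 4240 to 4284 in Sirt6-/-. Lum had at most 10 reads in any sample. Of the other 8, 1 was higher and 7 lower in Atm-/-, where Col3a1 fell by 4.36 on the log2 scale and Thy1 was higher at 1.83. In Sirt6-/- 3 were higher, Pdgfrb at 1.31, Col1a2 at 0.72 and Dcn at 0.45, and 5 lower, with Thy1 at 1, 33 and 12 reads against 941, 590 and 785 in WT. Over all tested genes 34.7% were higher and 33.6% lower in Atm-/-, and 39.2% and 37.4% in Sirt6-/-. The 5 hepatocyte markers summed to at most 0.516 RPKM in any sample, with Ttr and Serpina1a at 0 throughout. Of 7 macrophage markers, Ptprc, Adgre1 and Tyrobp had at most 6 reads in any sample. Lyz2 was read in every sample at 115 to 150 reads and not called against WT, Cd68 had 38 to 121 and was lower in Sirt6-/- at -1.11, Csf1r was lower in both knockouts and Cd14 higher (1.42 and 1.41), and the sums were 11.2 to 12.1 in WT, 15.8 to 17.3 in Atm-/- and 14.0 to 16.8 in Sirt6-/-. The 5 epithelial markers summed to 9.76 to 11.9, 26.8 to 30.5 and 8.13 to 10.2 RPKM in the same order. The 4 endothelial markers summed to 0.555 to 0.947, 1.89 to 2.43 and 0.156 to 0.228. Krt18 and Kdr made up most of these sums in Atm-/-, with means of 21.1 and 2.11 RPKM. Of the others there, Cdh1 was higher at 0.84 and Epcam and Krt8 were not called. Krt5, Pecam1, Cdh5 and Tek had too few reads to be tested. The part of all these markers in the complement values was not tested.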

How the data were processed

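RNA-Seq of 9 MEF samples was used, 3 per genotype as labelled. For each sample the authors deposited whole-number read counts of 24341 genes, the RPKM derived from them, and a length per gene. The labels give the build mm10, DNase treatment, oligo(dT) selection and Illumina libraries. The aligner, the counting tool and the use of strand are not given in the sources used here. Cd55os, antisense to Cd55, and the microRNA genes Mir6978 in C3 and Mir6972 in Cfb overlap members.

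Counts were tested with edgeR 4.0.16 in R 4.3.3 for each pair of genotypes (6 samples): filterByExpr by genotype, TMM factors, a quasi-likelihood fit (prior count 0.125) and F test, and Benjamini-Hochberg adjustment over all genes tested. Standard errors come from the F statistic and 95% intervals from its degrees of freedom. RPKM served for levels between genes. Positions and promoters are RefSeq GRCm38.p6, and shared windows were counted in GENCODE M21 transcripts. The scripts were tested on simulated counts. Alternatives were DESeq2 size factors and the DESeq2 1.42.0 Wald test, library totals, other filters, edgeR's exact test, a prior count of 2, a block for the replicate number, leaving out each sample, and a fit of all 9 samples. Adding the reads of near-identical copies was chosen after seeing the data.

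The members and gene lists were chosen with earlier results of these data known. Named are the members, their copies, and listed genes with an adjusted p under 0.05, including the largest rise and fall reported of each list. For C3, C1ra, Cd55, Serping1 and C2, genes among the 3 most like each are also named. Listed genes named with few reads or no call were chosen after their values were seen. Some listed genes count in the totals but are not reported here.

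Samples held 32187040 to 33837949 counted reads, so 3 counts are 0.0887 to 0.0932 CPM. Intervals and floors from counts cover counting error only. No samples were identical. Chi-square per gene between samples of a genotype was 4.69 to 6.00, apart from WT replicate 2, which reached 12.6 and 13.6 against the other WT samples.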

Additional observations from a re-analysis of the deposited data

How the results depend on the processing

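All calls of members kept their direction and side of the threshold in the 15 or 16 alternatives in which each was tested. The exception was C4b in Atm-/-, not called in any, which turned from -0.55 to 0.14 with the reads of C4a added. For C3 the log2 fold change ranged from -1.61 to -1.28 in Atm-/- and from 1.57 to 1.86 in Sirt6-/-. Member counts moved where leaving out Atm-/- replicate 2 let Cfb be tested, with 3 members then higher in Atm-/-. They also moved with a mean of at least 1 CPM. Serping1 was then not tested in Atm-/- and dropped out of the members lower there. Scaling by library totals moved the median of all genes from 0.015 to 0.18 in Atm-/- and from 0.024 to 0.11 in Sirt6-/-. The split of all calls in Atm-/- moved from 4611 higher and 4469 lower to 6156 and 3326. Of the genes of the MHC class III region, 1 was higher in Atm-/-, but 4 with library totals, 2 with a mean of at least 1 CPM, 2 with all 9 samples in one fit, and 1 to 2 with a sample left out. The 4 lower in Atm-/- became 2 with library totals and 2 to 4 with a sample left out, those lower in Sirt6-/- 2 with library totals, and those lower between the knockouts 2 to 4 with a sample left out. The 2 inducers lower in Sirt6-/- became 2 to 4, with 4 without WT replicate 2. C1s2, Il1a, C1s1 and Cd93 kept their direction, but their calls in a comparison with WT were lost under some alternatives, with adjusted p up to 0.191, 0.1, 0.11 and 0.0823.

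Replicate numbers are shared between genotypes, and same-numbered samples deviated together little or not at all (r from -0.020 to 0.031). Between the knockouts every sample correlated best with its own number, at r of 0.018 to 0.031. The other pairs there had r from -0.032 to 0.00030. Whether same-numbered samples share more than a number is not given. With the replicate number as a block, 8833 genes were called in Atm-/- against 9080 without it, 10041 against 10114 in Sirt6-/-, and 10157 against 10205 between the knockouts, and no call of a member changed.

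Depth limits C2, Cfb, C4b and Serping1, which had at most 152 reads in any sample. A fitted fold of C2 or Cd55 against a genotype near 0 depends on the prior count and is no bound.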

Other observations

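C4b, C2 and Cfb lie in the MHC class III region, and 12 other genes of that stretch were read beside them. In Atm-/- against WT 10 could be tested, with 1 higher and 4 lower, and a median log2 fold change of -0.10. In Sirt6-/- 2 were higher and 4 lower, with a median of -0.05. Tnxb, which encodes a tenascin of the extracellular matrix and is the nearest of them to C4b, had 208, 188 and 190 reads in WT, 355, 410 and 368 in Atm-/-, and 474, 521 and 496 in Sirt6-/-, log2 fold changes of 0.81 and 1.29. Neu1, a lysosomal sialidase, had the largest fall in Sirt6-/- at -0.88 and was at -0.40 in Atm-/-, where Stk19 fell to -0.47. Skiv2l was higher in Sirt6-/- at 0.24. Between the knockouts 3 were higher in Sirt6-/- and 4 lower, from 0.47 for Tnxb to -0.49 for Neu1. Over all tested genes 34.7% were higher and 33.6% lower in Atm-/-, and 39.2% and 37.4% in Sirt6-/-. Between the knockouts those shares were 37.8% and 38.0%. Nelfe, which ends beside Cfb, stood at -0.19 and -0.21, calls that were lost in 4 and 1 of 16 alternatives (adjusted p up to 0.754 and 0.104). None of the tested neighbours changed by as much as Cfb in Sirt6-/- (3.44) or C2 in Atm-/- (4.87). Both of these genes had few or no reads in WT and were tested only through the knockout where they were higher. C4b, the other member there, was not called in Atm-/- (-0.55). In Sirt6-/- C4b stood at 1.93, but at 0.91 with the reads of C4a added, below the 1.29 of Tnxb.

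C1s2, a copy of the C1s gene, moved against C1s1, with 31, 9 and 13 reads in WT, 109, 98 and 63 in Atm-/-, and 10, 2 and 4 in Sirt6-/-. Its log2 fold change was 2.20 in Atm-/- (adjusted p = 0.000195) and -1.75 in Sirt6-/- (adjusted p = 0.0249), where its samples overlapped WT. Without WT replicate 1 these values were 2.87 and -1.10, the latter no longer called (adjusted p = 0.191), and without Sirt6-/- replicate 1 the latter was -2.56.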
